A study of Mus musculus with 6 samples.

Results

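AMPA receptor mRNAs were followed in synaptoneurosomes, the filtered brain fraction rich in pinched-off synapses, as 10 genes taken by name from the 21958 protein-coding genes of the count table. Of these, 4 encode the pore subunits (Gria1, Gria2, Gria3 and Gria4) and 6 encode auxiliary proteins that travel with the pore (Cacng2, Cacng3, Cacng8, Cnih2, Cnih3 and Shisa9). All 10 were present in every library and passed the filter on low counts, so none of them had to differ in order to be tested.

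The study set polyribosomal RNA of stimulated synaptoneurosomes against the whole RNA of unstimulated ones, to find which synaptic mRNAs are engaged in translation after the NMDA receptor is activated. The tissue was hippocampus with adjacent cortex of FVB mice aged 6 to 8 weeks, pooled from several animals and divided into aliquots. The polyribosome group (labelled NMDA polyribosomes, 3 libraries) received a pulse of 50 µM NMDA and 10 µM glutamate for 30 s, then 120 µM of the NMDA receptor blocker APV. After 20 min its light and heavy polyribosomes were collected from a sucrose gradient. The total group (labelled unstim. Total, 3 libraries) was kept on ice with the translation inhibitor cycloheximide, and its RNA was taken without a gradient. The groups thus differed in stimulation and in fraction together, and these cannot be told apart. Neither group came from a mutant or a sorted cell type. The labels do not say whether replicates were separate preparations, so the p-values measure the spread between these libraries, which may be technical in part. In such bulk RNA, fewer structures of a kind and less RNA in each structure cannot be told apart either.

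AMPA receptors are tetramers of GluA1 to GluA4, the products of Gria1 to Gria4, and carry most fast excitatory current in the forebrain. Auxiliary proteins set how many receptors reach the synapse and how the channel opens and closes. TARPs, made from some of the Cacng genes, anchor receptors at the postsynaptic density. Cornichons (Cnih2 and Cnih3) help export from the endoplasmic reticulum and slow channel closing, and Shisa9 (also CKAMP44) modulates desensitization. Some of these mRNAs are carried into dendrites, where they can be translated near synapses.

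The pore subunit genes are close relatives, and the following windows show how far the reads can tell them apart. Each is the sense strand of GRCm38, 57 bases of coding sequence around the glutamine codon of the channel lining, which is in capitals and which RNA editing turns into an arginine codon in Gria2. Every window joins 2 exons, so its coordinates span an intron: chr11:57243067-57283513 (plus strand) for Gria1, chr3:80702653-80706940 (minus) for Gria2, chrX:41610238-41620800 (plus) for Gria3 and chr9:4462101-4464166 (minus) for Gria4.
Gria1: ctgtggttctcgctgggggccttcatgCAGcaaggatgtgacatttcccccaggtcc
Gria2: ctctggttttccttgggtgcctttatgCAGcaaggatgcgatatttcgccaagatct
Gria3: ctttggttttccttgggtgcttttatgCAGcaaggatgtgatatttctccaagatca
Gria4: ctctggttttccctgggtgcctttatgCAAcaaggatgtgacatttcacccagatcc
Against Gria2, the window differed at 12 bases in Gria1, at 5 in Gria3 and at 7 in Gria4. Over whole transcripts, no run of 100 bases of any pore subunit was found in a transcript of another gene, on either strand. Runs of 50 bases were shared at 0.07% of positions in Gria2 and at 0.02% in Gria4, both with Gria3, and at none in Gria1. The counts are per gene, so they do not show how much of the Gria2 mRNA was edited.

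The GC content of the members spans nearly the whole range of the genes tested, and some results below turn on it. It is shown with 90 bases from the middle of the coding sequences of the members at both ends, with G and C in capitals. The windows are Gria2 at chr3:80707804-80707893 (minus strand), Gria3 at chrX:41598466-41598555 (plus), Cnih2 at chr19:5093946-5094286 (minus, across an intron) and Cacng8 at chr7:3414922-3415011 (plus), all GRCm38.
Gria2: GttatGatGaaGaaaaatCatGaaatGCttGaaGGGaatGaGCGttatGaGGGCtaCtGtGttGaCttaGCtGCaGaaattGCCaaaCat
Gria3: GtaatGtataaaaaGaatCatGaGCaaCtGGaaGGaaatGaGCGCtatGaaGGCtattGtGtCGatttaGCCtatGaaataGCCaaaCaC
Cnih2: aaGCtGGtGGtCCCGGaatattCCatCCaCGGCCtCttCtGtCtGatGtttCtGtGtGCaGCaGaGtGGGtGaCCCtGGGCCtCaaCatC
Cacng8: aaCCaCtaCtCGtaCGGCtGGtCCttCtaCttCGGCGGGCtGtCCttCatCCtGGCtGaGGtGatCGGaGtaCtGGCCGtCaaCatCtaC
G and C made up 38.9% of the Gria2 window, 37.8% of the Gria3 window, 55.6% of the Cnih2 window and 56.7% of the Cacng8 window. The whole coding sequences had 44.7% in Gria2, 45.5% in Gria3, 54.0% in Cnih2 and 66.7% in Cacng8. By coding sequence Cnih2 was not at the high end, since Shisa9 had 58.3%. Over the longest transcript of any type Gria2 had 36.8%, lower than in all but 0.866% of the 12238 tested genes with a sequence. Gria3 had 39.8%, Cnih2 62.3% and Cacng8 65.1%, the last higher than in 99.6% of them. The Gria3 transcript that holds the windows, of 5192 bases, had 43.0%, and the corrections for GC content below used 39.8%. Exonic length ran the other way, from 10486 bases in Gria2 and 5437 in Gria3 to 1897 in Cacng8 and 1343 in Cnih2.

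The counts of the polyribosome libraries summed to between 5294482 and 7361580 and those of the total libraries to between 1044955 and 3738022, so total replicate 3 was the shallowest. Replicate 3 also stood furthest from the others in both groups. The variance of its gene counts around another replicate was 19.3 to 21.5 times counting error on polyribosomes, where replicates 1 and 2 differed by 7.70 times. In total RNA the same values were 6.52 to 8.74 and 3.58. Over all genes the spread between replicates was thus wider than counting error in both groups. The fewest counts behind a member were 50, for Cacng3 in total replicate 3, for which counting error alone allows 37.1 to 65.9 (exact Poisson interval, 95%). The labelled preparation was checked against marker genes. All 43 markers of neurons, synapses, glia and endothelium were detected. Their levels are given in CPM, counts scaled to the library total after TMM normalization. Astrocyte markers gave 32100 to 42800 CPM in a library, against 6210 to 8600 for excitatory neuron and postsynaptic markers. The glutamate transporter Slc1a2 alone gave 26300 to 33600 CPM of the astrocyte sum, and the other 6 astrocyte markers 5750 to 12400.

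Of the 10 AMPA receptor mRNAs, 0 passed the threshold of 0.01 in edgeR's quasi-likelihood test between the groups, with p-values adjusted over 12255 genes by the Benjamini-Hochberg method. At an unadjusted p under 0.05 there was 1, Cacng8, where 15.4% of all genes were higher and 17.1% lower. DESeq2 called 0 at the same adjusted threshold. It called 3.19% higher and 3.77% lower of the 9919 genes to which it gave an adjusted p. Among all genes tested, edgeR called 0.71% higher on polyribosomes and 2.36% lower. Only Cacng8 had groups that did not overlap, with all 3 polyribosome libraries above all 3 total libraries, which was so for 17.4% of all genes (and the reverse for 18.9%). Its polyribosome level was 1.76 times the total level, and the other 9 members lay between 0.846 and 1.15 times.

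**Figure D1:**
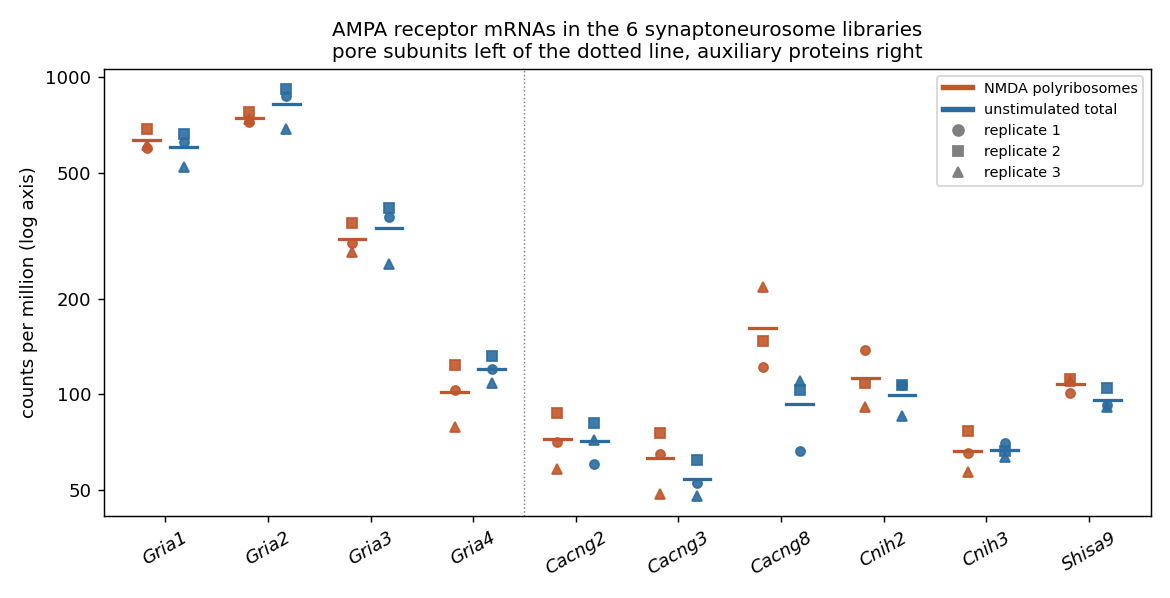
CPM (log axis) of the 4 pore subunit and 6 auxiliary protein mRNAs in each of the 3 NMDA polyribosome and 3 unstimulated total libraries. CPM are counts scaled to the TMM-normalized library total, symbols are libraries and lines are group means. Only the groups of Cacng8 are separate, with 121.6 to 217.4 CPM on polyribosomes and 66.3 to 110.3 in total RNA.

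Gria1, on chromosome 11 from 57011387 to 57330244 (plus strand, GRCm38), encodes GluA1, the subunit most tied to activity-dependent insertion of receptors. Its raw counts were 4439, 4564 and 2981 in polyribosome libraries 1 to 3 and 2512, 1978 and 542 in total libraries 1 to 3. Scaled to depth these were 600.5, 687.5 and 613.7 CPM on polyribosomes and 623.8, 662.4 and 519.8 CPM in total RNA. The ranges overlapped, and the lowest value was that of the shallowest library. The log2 fold change (positive means higher on polyribosomes) was 0.07, with a standard error of 0.17, a 95% interval from -0.29 to 0.44 and an adjusted p of 0.806 (edgeR).

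Gria2, on chromosome 3 from 80681450 to 80802835 (minus strand), encodes GluA2, which in its edited form keeps the channel nearly impermeable to calcium. Its counts of 5330, 5170 and 3588 on polyribosomes and 3523, 2746 and 716 in total RNA were the highest of the receptor in every library. In CPM they were 721.0, 778.8 and 738.7 against 874.8, 919.6 and 686.6. The polyribosome values lay close together, inside the wider spread of the total libraries, with total replicate 3 the lowest of all 6. The log2 fold change was -0.15 (standard error 0.17, interval -0.52 to 0.22, adjusted p = 0.59 from edgeR).

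Gria3, on chromosome X from 41400854 to 41678601 (plus strand), encodes GluA3, which pairs mostly with GluA2. It had 2212, 2304 and 1363 counts on polyribosomes and 1464, 1155 and 268 in total RNA, or 299.2, 347.1 and 280.6 CPM against 363.5, 386.8 and 257.0. It ordered the libraries of each group as Gria2 ordered the total ones, with replicate 2 highest and replicate 3 lowest. Its fitted log2 fold change was -0.13 (standard error 0.19, interval -0.52 to 0.27, adjusted p = 0.682 from edgeR).

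Gria4, on chromosome 9 from 4417899 to 4796234 (minus strand), encodes GluA4, the fast subunit used mainly by interneurons in the adult forebrain. It was the scarcest pore subunit, with 764, 824 and 383 counts against 485, 394 and 113, or 103.3, 124.1 and 78.9 CPM against 120.4, 132.0 and 108.4. It was the one member that was lower on polyribosomes in all 3 pairs of same-numbered libraries, by 0.22, 0.09 and 0.46 on the log2 scale. The fitted log2 fold change was -0.24 (standard error 0.19, interval -0.64 to 0.15, adjusted p = 0.392 from edgeR).

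Among the TARPs, Cacng2 (chromosome 15 from 77991748 to 78120028, minus strand) encodes stargazin, the founding member, which is mutated in the ataxic stargazer mouse. It had 524, 579 and 283 counts against 243, 242 and 75, or 70.9, 87.2 and 58.3 CPM on polyribosomes against 60.3, 81.0 and 71.9 in total RNA. The polyribosome values enclosed the total values, and the log2 fold change was 0.03 (standard error 0.19, interval -0.38 to 0.43, adjusted p = 0.939 from edgeR). An antisense gene, A730060N03Rik, overlaps 323 of its exonic bases (5.9%). The sources used here do not state if reads were counted by strand. Runs of 50 bases at 5.86% of its positions and of 100 bases at 4.14% were also found in transcripts of other genes, on either strand. For runs of 50 bases these were 659 genes, so part of the Cacng2 count is uncertain.

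Cacng3 (chromosome 7 from 122670492 to 122769393, plus strand) encodes the closest relative of stargazin. It had 480, 500 and 236 counts against 211, 186 and 50, or 64.9, 75.3 and 48.6 CPM against 52.4, 62.3 and 47.9. The polyribosome library was the higher one in all 3 pairs, by 0.31, 0.27 and 0.02 on the log2 scale, although the groups overlapped, and the log2 fold change was 0.20 (standard error 0.19, interval -0.21 to 0.61, adjusted p = 0.497 from edgeR).

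Cacng8 (chromosome 7 from 3390683 to 3415648, plus strand) encodes the TARP that is most abundant in hippocampus, where it maintains the pool of receptors outside synapses. Its raw counts were 899, 975 and 1056 in polyribosome libraries 1 to 3 and 267, 309 and 115 in total libraries 1 to 3. In CPM these were 121.6, 146.9 and 217.4 on polyribosomes and 66.3, 103.5 and 110.3 in total RNA. It was highest in polyribosome replicate 3, while every pore subunit but Gria1 and Gria2 had its lowest polyribosome value there. The log2 fold change was 0.81, with a standard error of 0.24, an interval from 0.31 to 1.32, an unadjusted p of 0.00359 and an adjusted p of 0.0335 (edgeR's quasi-likelihood test), which misses the threshold. Within pairs the log2 ratio was 0.88, 0.51 and 0.98, higher in 3 of 3. With each library left out in turn the log2 fold change ran from 0.56, without polyribosome replicate 3, to 0.98, without polyribosome replicate 1, and the adjusted p from 0.0212 to 0.178. A miRNA gene, Gm23450, shares 91 of its exonic bases on the same strand (4.8%).

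The call on Cacng8 depended on the model. With the replicate number as a block, which compares libraries within a pair, the log2 fold change was 0.77 and the adjusted p 4.71e-07 (edgeR), and Cacng8 was the one member called. That fit called 11.8% of all genes higher and 13.2% lower. When the block was joined by an offset for the GC content and exonic length of each gene, the log2 fold change of Cacng8 was 0.02 (adjusted p = 0.92 from edgeR). With the offset for GC content alone it was 0.15 (standard error 0.13, adjusted p = 0.415), and with the offset for length alone 0.57 (adjusted p = 5.98e-05). The difference was thus called only in fits without the GC offset. Whether the part removed by that offset came from library preparation or from polyribosome loading was not tested.

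The cornichon Cnih2 (chromosome 19 from 5092871 to 5098418, minus strand) had 1021, 719 and 443 counts against 430, 320 and 89, or 138.1, 108.3 and 91.2 CPM against 106.8, 107.2 and 85.3. Polyribosome replicate 1 lay above the total libraries, replicate 2 level with the highest of them and replicate 3 among them. The log2 fold change was 0.16 (standard error 0.18, interval -0.23 to 0.56, adjusted p = 0.582 from edgeR). The neighbouring gene Yif1a overlaps its exons by 14 bases on the other strand. Its relative Cnih3 (chromosome 1 from 181352628 to 181460641, plus strand) was the member nearest to no difference. It had 483, 510 and 277 counts against 283, 198 and 66, or 65.3, 76.8 and 57.0 CPM against 70.3, 66.3 and 63.3, and a log2 fold change of -0.01 (standard error 0.17, interval -0.37 to 0.35, adjusted p = 0.977 from edgeR).

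Shisa9 (chromosome 16 from 11984113 to 12270902, plus strand) encodes a receptor partner best known from the dentate gyrus. It had 748, 745 and 536 counts against 373, 312 and 95, or 101.2, 112.2 and 110.4 CPM against 92.6, 104.5 and 91.1. It varied least among the polyribosome libraries of the auxiliary proteins, and the polyribosome library was the higher one in all 3 pairs, by 0.13, 0.10 and 0.28 on the log2 scale. The groups overlapped, and the log2 fold change was 0.16 (standard error 0.16, interval -0.17 to 0.50, adjusted p = 0.506 from edgeR). For the 9 members other than Cacng8, the 95% intervals of this fit without a block reached from -0.64 to 0.61.

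Set side by side, the pore subunits tended to smaller and the auxiliary proteins to larger values on polyribosomes, with a mean difference between the classes smaller than its SD over the 3 pairs. The median log2 fold change was -0.14 for the 4 pore subunits and 0.16 for the 6 auxiliary proteins, beside 0.00 for all genes tested. The log2 fold change was above 0 for 1 of 4 pore subunits and for 5 of 6 auxiliary proteins. The median for pore subunits minus that for auxiliary proteins was -0.30. Within pairs 1 to 3 this difference was -0.52, -0.28 and 0.06 (mean -0.25 ± 0.29, SD, n = 3), so pair 3 did not share the direction. Without Cacng8 the median of the auxiliary proteins was again 0.16. Among the members, the TARPs had a median of 0.20 and the cornichons of 0.08. These medians describe chosen genes and carry no test.

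**Figure D2:**
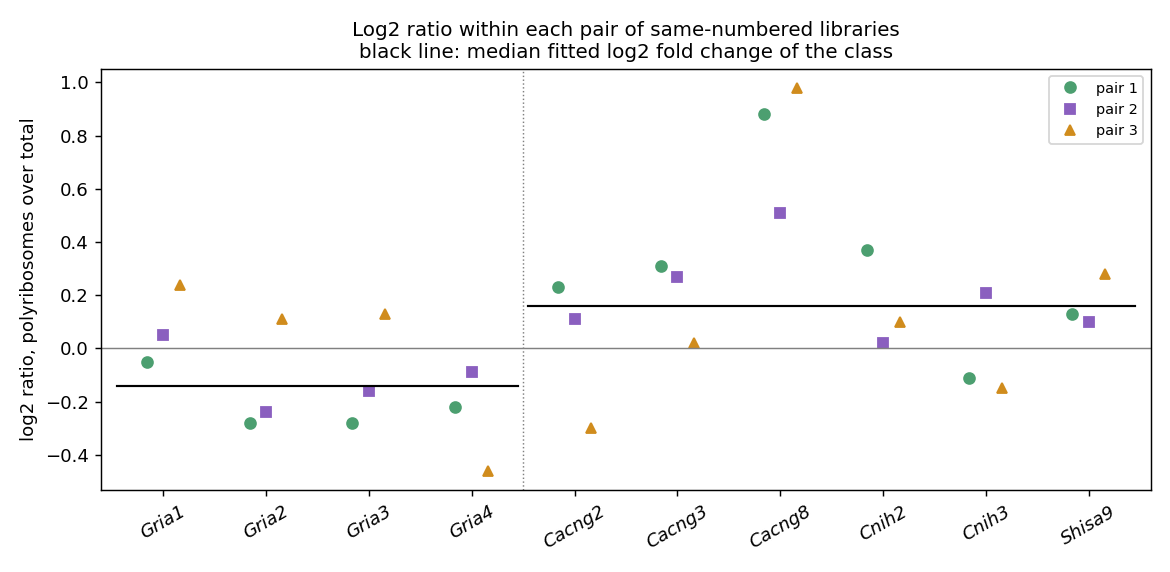
Log2 ratio of polyribosome over total CPM within each of the 3 pairs of same-numbered libraries, for each member; the black lines are the medians of the fitted log2 fold changes of the pore subunits (-0.14) and of the auxiliary proteins (0.16). Pair 3 holds the highest ratio for Gria1, Gria2, Gria3, Cacng8 and Shisa9 and the lowest for Gria4, Cacng2, Cacng3 and Cnih3.

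The summed counts showed the same contrast as long as Cacng8 was among them. Auxiliary proteins held 24.6%, 23.8% and 25.4% of all member counts in polyribosome libraries 1 to 3 and 18.5%, 20.0% and 23.0% in total libraries 1 to 3. Every polyribosome library was thus above every total library, with means of 24.6% ± 0.8 and 20.5% ± 2.29 (SD, n = 3 each). In CPM, the auxiliary proteins summed to 584 ± 22.5 on polyribosomes against 481 ± 39.2 in total RNA, and the pore subunits to 1790 ± 130 against 1880 ± 278. The total library with the auxiliary share nearest to the polyribosome libraries was replicate 3, the shallowest. Without Cacng8, a comparison added after the values were seen, the auxiliary share was 20.3%, 19.2% and 17.6% on polyribosomes and 16.2%, 16.7% and 18.6% in total RNA, and the groups overlapped.

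The order of the classes turned when GC content was taken into account. Across the 12238 tested genes with both values, the log2 fold change had a Spearman correlation of 0.54 with GC content and of -0.37 with exonic length, as a description of these libraries. The median log2 fold change was -0.45 in the tenth of genes with the lowest GC content and 0.42 in the tenth with the highest. Gria2 and Gria3 have low GC content and Cacng8 and Cnih2 high GC content, while Gria1 (48.5%) lies near the median of 49.8%. By length the classes overlap, since Cacng2 (5510 bases) is longer than Gria3. In the fit with the replicate block and both offsets, which called 8.38% of genes higher and 6.8% lower, 3 members passed the threshold. Gria2 was higher on polyribosomes (log2 fold change 0.59, adjusted p = 3.33e-05 from edgeR), as was Gria3 (0.39, adjusted p = 0.00631), and Cnih2 was lower (-0.52, adjusted p = 0.000273). The medians became 0.32 for pore subunits and 0.02 for auxiliary proteins, a difference of 0.30. The block with the GC offset alone gave 0.22, and with the block and the length offset alone the difference was -0.09, so the length offset did not turn the order. Without the block, the same offsets gave 0.60 for Gria2 and -0.53 for Cnih2, with adjusted p-values of 0.045 and 0.148 (edgeR) and no member called. The direction of Gria2, Gria3, Gria4 and Cnih2 therefore depended on the offset, as did that of Cacng3 without the block (-0.03). Gria1 and Shisa9 stayed above 0 in each fit with an offset, and Cacng8 came near 0 with both offsets (0.02 with and 0.04 without the block).

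**Figure D3:**
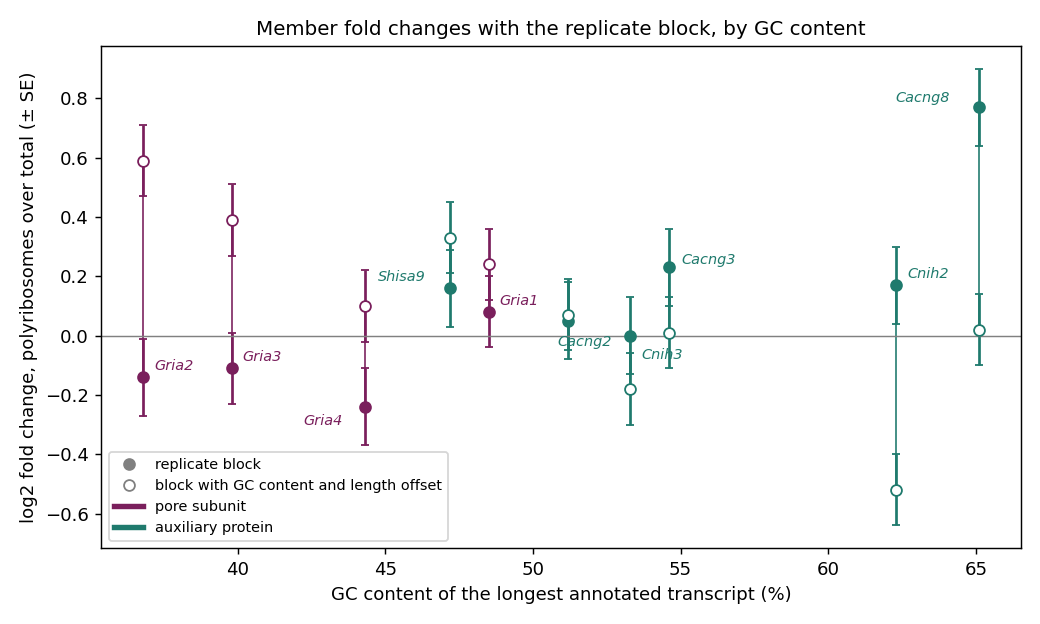
Log2 fold change (± SE of the fit) of each member against the GC content of its longest transcript, in the fit with the replicate block (filled) and with the GC content and length offset added (open). The offset moves Gria2 from -0.14 to 0.59, Cnih2 from 0.17 to -0.52 and Cacng8 from 0.77 to 0.02. It moves Gria1, Shisa9, Cacng2 and Cnih3 by less than 0.2.

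The pore subunits kept one order of shares in all 6 libraries, from Gria1 down to Gria4. On a scale of counts per kilobase of exonic length, which allows genes to be compared, Gria1 made up 42.5%, 43.0% and 44.1% of the 4 in polyribosome libraries 1 to 3 and 38.9%, 38.9% and 40.9% in total libraries 1 to 3. The groups did not overlap, with means of 43.2% ± 0.797 and 39.6% ± 1.14 (SD, n = 3 each), and the share was larger by 3.65, 4.05 and 3.2 percentage points within pairs 1 to 3. Gria2 made up 28.2%, 26.8% and 29.3% on polyribosomes and 30.1%, 29.8% and 29.8% in total RNA, also without overlap. Its means were 28.1% ± 1.21 and 29.9% ± 0.172, and its differences within pairs were -1.91, -2.95 and -0.52 percentage points. The shares are parts of 1 sum, so a larger Gria1 share makes the others smaller together. In CPM the groups of Gria1 and of Gria2 overlapped. Of all genes, 17.4% had separate groups with higher and 18.9% with lower CPM on polyribosomes. Gria3 (22.4% ± 0.832 and 23.3% ± 1.52) and Gria4 (6.34% ± 1.01 and 7.27% ± 0.486) overlapped between the groups. The shares are not corrected for GC content, which is highest in Gria1 and lowest in Gria2 of the 4. In the fit with the block and both offsets Gria1 was at a log2 fold change of 0.24 (adjusted p = 0.128 from edgeR), below Gria2 at 0.59 and Gria3 at 0.39.

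**Figure D4:**
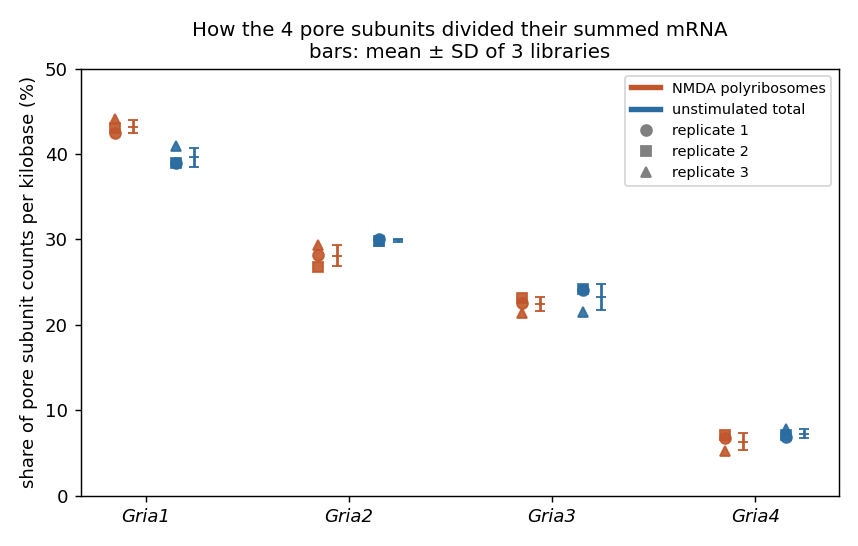
Share of each pore subunit in the summed counts per kilobase of Gria1 to Gria4 (percent), by library, with the mean ± SD of each group beside the points. The shares of Gria1 lie between 42.5% and 44.1% on polyribosomes and between 38.9% and 40.9% in total RNA.

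Levels per kilobase also ordered the whole receptor. On polyribosomes Gria1 was the highest, at 110 ± 8.10 CPM per kilobase (SD, n = 3), followed by Cacng8 (85.4 ± 26.2), Cnih2 (83.8 ± 17.7) and Gria2 (71.2 ± 2.82). These 4 neighbours overlapped from one to the next, and Gria2 stood clear of Gria3 (56.8 ± 6.30). The remaining members, from Shisa9 (24.7 ± 1.35) over Cnih3, Cacng3 and Gria4 to Cacng2 (13.1 ± 2.63), lay below Gria3 without overlap and overlapped with their neighbours.

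In total RNA the order was the same at both ends and differed in the middle. Gria1 (104 ± 12.8 CPM per kilobase) stood clear of Gria2 (78.9 ± 11.8), which overlapped with Cnih2 (74.3 ± 9.30), and Cacng8 (49.2 ± 12.5) came after Gria3 (61.8 ± 12.7). A gap without overlap again separated these 5 from Cnih3 (24.2 ± 1.27), and Cacng2 (12.9 ± 1.88) was again the lowest. Averaged over the 6 libraries, Gria1 was above 97.0% of the genes tested and Cacng2 above 68.8% on this scale. Auxiliary proteins together held 50.0% ± 1.91 of the member mRNA per kilobase on polyribosomes and 43.5% ± 3.23 in total RNA, and without Cacng8 39.8% ± 3.18 and 36.8% ± 1.47, with overlapping groups.

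Other genes linked to the AMPA receptor or its synapses were taken as a wider list of 50 genes, of which 47 were tested. Cacng1 and Cacng6 did not pass the filter on low counts, and Epb41l1 is not analysed here. None of the 47 was called in either direction by edgeR. At an unadjusted p under 0.05, 10 were higher and 7 lower, beside 15.4% and 17.1% of all genes. DESeq2 called 3 higher and 0 lower, beside 3.19% and 3.77% of the genes to which it gave an adjusted p. With the replicate block 9 were called higher and 4 lower, where that fit called 11.8% and 13.2% of all genes. With both offsets added 3 and 2 were called, beside 8.38% and 6.8% of all genes, so the list gave no more than its background there. The median log2 fold change of the list was -0.01, with 23 values above and 24 below 0.

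The genes listed as secreted partners all lay on the side of polyribosomes in the fit without the block, and their median log2 fold change over 5 genes was 0.53. The sublist does not hold every secreted protein of the wider list. Olfm1 (0.21), Olfm2 (0.74) and Olfm3 (0.04) were placed among other auxiliary proteins, and Vwc2 (-0.07) and Vwc2l (-0.52) under trafficking and anchoring. C1ql2, a C1q-like protein of mossy fibre synapses, had 21.5 ± 1.66 CPM on polyribosomes against 9.52 ± 4.24 CPM in total RNA, and its log2 fold change was 1.11 (adjusted p = 0.0129 from edgeR). The neuronal pentraxin Nptx2 had 124 ± 31.1 against 70.2 ± 20.0 CPM, and its log2 fold change was 0.82 (adjusted p = 0.0283). At the lower end were Nptxr (0.21) and C1ql3 (0.31). With the block and both offsets the median was 0.37, with Nptxr at -0.12 and C1ql3 at 0.08. In that fit C1ql2 was at 0.43 (adjusted p = 0.0989) and Nptx2 at 0.41 (adjusted p = 0.00643), and Nptx2 was the one gene of these 5 called (edgeR).

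Among 16 other auxiliary and related proteins, the median was 0.06. Shisa8, a relative of Shisa9, was at 0.97 (adjusted p = 0.0692 from edgeR) on only 7.34 ± 2.11 and 4.17 ± 1.52 CPM. Olfm2, a secreted olfactomedin, was at 0.74 (adjusted p = 0.0127 from edgeR). The lowest were the cornichon relative Cnih4 (-0.33) and Shisa6 (-0.24). In the fit with the block and both offsets Shisa8 was at 0.15 and Olfm2 at 0.34, with adjusted p-values of 0.78 and 0.0241 (edgeR). The 2 genes called in that fit, named after their values were seen, were Olfm3 (0.66, adjusted p = 6.45e-06) and the TARP Cacng7 (-0.52, adjusted p = 0.000361).

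Of 6 genes of receptor assembly in the endoplasmic reticulum, Porcn (0.59) and Cpt1c (0.44) were the highest and the phosphatase Sacm1l (-0.43) and the assembly factor Frrs1l (-0.31) the lowest. None of these was called by edgeR without the block. With the block Porcn (adjusted p = 0.000626) and Cpt1c (adjusted p = 0.00419) were called higher. With both offsets added Porcn was at 0.19, Cpt1c at 0.16, Sacm1l at 0.01 and Frrs1l at 0.07, and none was called.

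The genes placed under trafficking and anchoring, with Vwc2 and Vwc2l among them, lay mostly on the side of total RNA. Their log2 fold change was below 0 for 13 of 17 genes, with a median of -0.15. Grip1, a scaffold that binds the GluA2 tail, was the lowest at -0.59 (adjusted p = 0.0477 from edgeR), followed by the scaffold Dlg1 at -0.55 (adjusted p = 0.0466). Both were called lower with the block (adjusted p = 0.00495 and 0.000275 from edgeR), and with both offsets added they were at -0.37 and -0.15 and not called. Dlg4, which encodes the postsynaptic scaffold PSD95, was the highest at 0.41 (adjusted p = 0.124), with the endocytic adaptor Ap2m1 next at 0.06. With the block and both offsets Dlg4 was at 0.76 (adjusted p = 6.49e-08 from edgeR), the one gene of the 17 then called. Adarb1, the enzyme that edits the Gria2 codon shown above, had 247 ± 19.4 CPM on polyribosomes against 248 ± 50.6 CPM in total RNA, and its log2 fold change was 0.00 (adjusted p = 0.991 from edgeR). Adarb2 was at -0.57 and Adar at -0.31, neither called without the block. Adarb2 was called lower with the block (-0.58, adjusted p = 0.00444 from edgeR), and Adar with the block and both offsets (-0.38, adjusted p = 0.00853).

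The genes closest to the members in pattern were found by the correlation of log2 CPM over the 6 libraries, among 6267 genes with a mean count of at least 100. The mean profile of the pore subunits was nearest to Slitrk2 and Ube4a (Pearson coefficient 0.991 each) and Edem3 (0.989). That of the auxiliary proteins was nearest to Lsamp (0.982), Mertk (0.973) and B4galnt1 (0.972). With 6 libraries that share depth and preparation, such values are a description.

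Markers of neurons, synapses, glia and endothelium are given here because they were measured beside the members. None of the 43 markers was called by edgeR, which called 0.71% of all genes higher and 2.36% lower. At an unadjusted p under 0.05, 21 were higher and 3 lower, beside 15.4% and 17.1% of all genes. DESeq2 called 7 higher, beside 3.19% of the genes to which it gave an adjusted p. With the replicate block 20 were called higher and 3 lower, where that fit called 11.8% and 13.2% of all genes. With both offsets added 19 and 1 were called, beside 8.38% and 6.8%, and the higher ones included all 7 astrocyte markers. All 7 astrocyte markers, 6 oligodendrocyte markers, 5 markers of oligodendrocyte precursors and 5 of microglia had log2 fold changes above 0, with medians of 0.42, 0.38, 0.71 and 0.53. Summed, the astrocyte markers reached 40600 to 42800 CPM on polyribosomes against 32100 to 36600 CPM in total RNA, the oligodendrocyte markers 10300 to 14200 and 7560 to 10700, and the microglial markers 646 to 769 and 426 to 582. The precursor markers had 668 to 804 and 478 to 517. For the 6 excitatory neuron and postsynaptic markers, 3 values were above and 3 below 0, with sums of 7000 to 8600 and 6210 to 8180 CPM. Presynaptic markers summed to 3800 to 4890 and 3560 to 4120 CPM (2 of 4 above 0), inhibitory neuron markers to 529 to 998 and 424 to 664 (4 of 6) and endothelial markers to 197 to 370 and 196 to 240 (3 of 4). No marker was at 0 in the group means. The part of these markers in the member results was not tested.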

How the data were processed

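Ribosomal RNA was removed by the authors before strand-specific library preparation, and reads were aligned to GRCm38 with STAR (2.5.2b per the labels) and assigned to genes of Gencode vM6 basic. The deposited values used here are raw counts per gene for protein-coding genes, without normalization. The same table holds the authors' own DESeq2 comparison, which was not used.

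Counts were fitted with edgeR 4.0.16 in R 4.3.3 (TMM normalization, filterByExpr, quasi-likelihood test, group as the only term, two-sided) on the whole table, with Benjamini-Hochberg adjustment over 12255 genes and a threshold of 0.01. Only the fit without a block was tried on simulated counts, which had no pairs, no GC trend and changes larger than those of the members. That trial does not cover the fits with a block or offset, nor small differences. CPM are counts scaled to the library total of the genes tested times its TMM factor, and the ratios within pairs were taken from them. Exonic lengths, GC content and sequences came from Gencode vM21 of the same build, available for 99.9% of genes tested, so lengths may differ from the authors' annotation. GC content was that of the longest transcript of any type, while lengths and sequences came from the basic set. The GC content and length offset was fitted in each library by lowess (span 0.3). Alternatives were RLE factors, library totals, DESeq2 1.42.0, no filter, a replicate block, the offsets and leaving out libraries. Same-numbered libraries share a number in their labels and a prefix in the table's header, and after subtraction of the group means their profiles correlated by 0.366, 0.258 and 0.38, so the numbers were taken as pairs. From the wider list, the genes named are those past the threshold and the 2 highest and 2 lowest of each sublist. The members and all gene lists were chosen with earlier results of these data known.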

Additional observations from a re-analysis of the deposited data

How the results depend on the processing

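Of the 160 values of the members under the alternatives, 128 kept their direction and their side of the threshold and 29 turned. Past the threshold were 7, of which 3 (Cacng8) kept and 4 (Gria2 in 2 fits, Gria3 and Cnih2) turned their direction. No member was called under RLE factors, library totals, DESeq2, the offsets without the block or any left-out library. Without the filter 1 was called (Cacng8, 0.84, adjusted p = 0.00392 from edgeR), where 476 of 16736 genes were called higher and 566 lower. With the block 1 was called, beside 11.8% of all genes higher and 13.2% lower. The block with the GC offset alone also called 1, where 980 of 12238 genes were called higher and 1003 lower. With the block and the length offset alone 1 was called, where 1453 of 12238 were called higher and 1265 lower. With the block the log2 fold change of Cacng8 was 0.77, and with the block and the length offset 0.57. With the block and the GC offset alone the called member was Gria2. With the block and both offsets 3 were called, beside 8.38% of all genes higher and 6.8% lower. The 2 offsets taken singly and the removal of both replicate 3 libraries were chosen after seeing the data. The paired fit changed no call but that of Cacng8, and put Cnih3 at 0.00.

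The genes called higher and lower on polyribosomes numbered 87 and 289 of 12255 tested. They were 476 and 566 of 16736 without the filter. With the block they were 1441 and 1622, with both offsets 27 and 64, and with the block and both offsets 1025 and 832. The block with the GC offset gave 980 and 1003, and with the length offset 1453 and 1265. Library totals gave 42 higher and DESeq2 316 higher, the latter of 9919 genes with an adjusted p. Leaving out libraries gave 0 to 453 higher and 22 to 658 lower, with the fewest without total replicate 2 and the most without both replicate 3 libraries. Scaling by library totals moved the median of all genes to -0.11 and put Gria1 at -0.03 and Cacng2 at -0.07.

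The median of the pore subunits was 0.32 with both offsets, with and without the block, 0.22 with the block and GC offset and 0.09 with the block and length offset. That of the auxiliary proteins was 0.01 with both offsets, 0.02 with the block and both, and 0.01 with the block and GC offset. Pore minus auxiliary was 0.31, 0.30 and 0.22 in the same order, and -0.09 with the block and length offset, where the order held. Left-out libraries gave -0.27 to -0.04, 0.10 to 0.23 and -0.38 to -0.23.

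Both offsets put Gria2 at 0.60, Gria3 at 0.40, Gria4 at 0.10, Cacng3 at -0.03 and Cnih2 at -0.53. With the block and both offsets Gria2 was at 0.59, Gria3 at 0.39, Gria4 at 0.10 and Cnih2 at -0.52. With the block and GC offset Gria2 was at 0.41, Gria3 at 0.31, Cacng2 at -0.01 and Cnih2 at -0.34, and with the block and length offset they were 0.17 for Gria2, 0.02 for Gria3 and -0.10 for Cnih2. Cnih3 was at 0.01 without the filter and at 0.00 with DESeq2. Across left-out libraries Gria1 ran from -0.02 to 0.15, Cacng2 from -0.13 to 0.16, Cnih2 from -0.01 to 0.29 and Cnih3 from -0.12 to 0.09. The Gria1 share ran from 3.19 to 4.29 percentage points above total RNA, that of Gria2 from -2.38 to -1.17, that of Gria3 from -1.79 to -0.45 and that of Gria4 from -1.32 to -0.36, with the value nearest 0 without polyribosome replicate 2 for Gria2 and without polyribosome replicate 3 for Gria4. The causes were not tested. The offsets take out any difference that follows GC content or length, whatever its source, so the sources cannot be told apart here. Depth limits the low genes most in total replicate 3, and the annotation used for lengths and GC content is later than the authors'.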

Other observations

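The markers of inhibitory neurons lay on both sides of 0. In edgeR without the block 0 of 6 passed the threshold of 0.01, beside 0.71% of all genes higher and 2.36% lower. At an unadjusted p under 0.05, 3 were higher and 2 lower, beside 15.4% and 17.1% of all genes. DESeq2 called 1 higher, beside 3.19% of the genes to which it gave an adjusted p. The vesicular GABA transporter Slc32a1 had 138 ± 36.6 CPM on polyribosomes against 67.8 ± 19.5 CPM in total RNA, and its log2 fold change was 1.05 (adjusted p = 0.0133 from edgeR). The neuropeptides Sst and Vip were at 0.94 and 0.48 and the calcium-binding protein Pvalb at 0.36 (adjusted p = 0.371). The GABA-synthesizing enzymes Gad1 and Gad2 were at -0.39 and -0.66. With the replicate block 5 of the 6 were called, where that fit called 11.8% of all genes higher and 13.2% lower. Slc32a1 (adjusted p = 1.12e-10 from edgeR), Sst (2e-09) and Vip (0.0061) were higher, and Gad1 (0.00851) and Gad2 (2.11e-05) lower. With both offsets added 2 were called, both higher, beside 8.38% of all genes. These were Vip (0.72, adjusted p = 1.85e-07 from edgeR) and Slc32a1 (0.51, adjusted p = 0.000429). Sst was then at 0.34, Pvalb at 0.11, Gad1 at -0.23 and Gad2 at -0.33.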
